A study of Bos taurus with 8 samples.

Results

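The 10 genes described here encode proteins that bind, sense, relay and inactivate bacterial lipopolysaccharide (LPS): LBP, CD14, LY96, TLR4, TIRAP, MYD88, TICAM2, IRAK4, IRAK1 and AOAH. They were taken by name, not by their values, from the gene symbols of the array, where each had 1 probe and 1 spot, so that 10 of the 14672 named genes on the array, and 10 of its 15008 probes, are at issue. Levels were measured in liver of 4 Holstein bull cattle aged 5 to 6 months, animals 19, 20, 23 and 24, on 1-colour Agilent arrays. Every animal had been through the same diet change, a challenge with subacute ruminal acidosis (SARA), in which rumen pH stays low and LPS is released: roughage for 11 days, a high-grain diet for 2 days and roughage again for 1 day. In both groups the samples were taken 2 days after that challenge, and no unchallenged liver is among them. The groups differ in the dose of egg-yolk immunoglobulin against LPS placed in the rumen through a fistula once daily for 14 days, which was 0 g per head in the control group and 4 g per head in the other. The trial was a Latin square, so each animal gave 1 array at 0 g and 1 at 4 g, 8 arrays in all; the 2 g dose, and further animals of the trial, were not analysed here.

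LPS is the outer coat of gram-negative bacteria. LBP, a plasma protein secreted by hepatocytes, lifts single LPS molecules from bacterial membranes and hands them to CD14, which passes them on to the pocket of LY96 held on the receptor TLR4. On the inner side of the membrane TIRAP brings in MYD88, which assembles the kinases IRAK4 and IRAK1 and leads to NF-kB, while TICAM2 serves the arm of the receptor that leads to interferon. AOAH ends the signal by cutting fatty acyl chains from lipid A, the part of LPS that the receptor reads. Liver receives LPS from the gut and forestomachs in portal blood, and its resident macrophages, the Kupffer cells, take up much of it.

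The level of a gene is given as log2 of the background-subtracted spot signal minus the 75th percentile of all probes on that array, so 0 is the brightness that 75% of probes stay below. Values of different genes come from different probes and are not set against each other. A probe counts as measured on an array where the scanner software marked it well above background.

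Each gene is read through a single short stretch of its transcript, so the probes behind the results are shown. All are 60 bases long. In 4 of them, those for LBP, MYD88, TICAM2 and AOAH, the usual polyadenylation signal AATAAA was found on the probe strand, against 1427 of all 15008 probes (9.51%). For these the 30 bases that hold the signal, in capitals, are shown 5′ to 3′:
LBP: tggttggtcctcAATAAAtatttattgaat
MYD88: tcctaggtttatAATAAAgagtctctactt
TICAM2: aattgatgctggatggtgttttttAATAAA
AOAH: cacctgcacccaaatttttgtcttAATAAA

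The probes of TLR4 and IRAK1, whose signals were near background on part of the arrays, lack AATAAA and are shown whole, with no part marked:
TLR4: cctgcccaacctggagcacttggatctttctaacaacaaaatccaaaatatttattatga
IRAK1: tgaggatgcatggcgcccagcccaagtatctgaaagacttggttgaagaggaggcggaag

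On the cattle assembly UMD 3.1 the files place the LBP probe at chr13:67910036-67910095 and that of MYD88 at chr22:11650941-11651000, both on the plus strand. The TICAM2 probe lies at chr10:4374449-4374508 on the minus strand, the AOAH probe at chr4:61125588-61125647 and the TLR4 probe at chr8:108837183-108837242, both on the plus strand. The 60 bases of the IRAK1 probe are spread over 1184 bases of the minus strand, chrX:40129155-40130338, so this probe reads across an intron. The remaining probes lie at chr7:53447621-53447680 (CD14), chr14:39385072-39385131 (LY96), chr29:30013439-30013498 (TIRAP) and chr5:36878152-36878211 (IRAK4). The probe for LY96 was designed on an expressed sequence tag, whereas the other 9 were designed on a RefSeq mRNA. Exons and untranslated regions are not marked in the files.

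The arrays differed in brightness, with 75th percentiles of 121.3 (0 g, animal 20) and 121.8 (4 g, animal 19) on the dimmest arrays and 210.9 to 300.3 on the others; 64.4% to 80.4% of probes were well above background and no spot was saturated. All 10 hepatocyte markers found on the array, among them ALB, were well above background on all 8 arrays, and liver is the tissue named in the labels. The extraction protocol there speaks of rumen epithelium, and of 13 markers of it 4 to 6 were well above background. The 0 g array of animal 23 also carried 9 of 9 pancreatic acinar markers, with a list mean of 6.40 against −5.48 to −3.79 on the other 7 arrays. Which arrays share an animal was checked and not settled. Among all tested probes, 15 had 2 separate levels (arrays alike within 0.5, levels over 2 log2 units apart) that joined the 0 g arrays of animals 23 and 24 and set them off from their 4 g arrays, 0 joined the arrays labelled as 1 animal, and 2 joined each 0 g array to the 4 g array of the other animal. For animals 19 and 20 the counts were 0 by dose, 13 by animal and 80 crossed, and the crossed split is also the one that parts the 2 dimmest arrays from the others. Deviations from the group means over all tested probes correlated within animals 23 and 24 (0.21 and 0.13) and ran against each other within animals 19 and 20 (−0.19 and −0.18), so these checks differ and neither pair is taken as the sound one. For the 8 tested genes the value on each array is given, and for LBP and AOAH also the difference in each pair.

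The levels of 6 of the 10 genes, LBP, CD14, MYD88, TICAM2, IRAK4 and AOAH, were well above background on all 8 arrays, as were 61.8% of all probes. TLR4 and TIRAP were so on 6 arrays each, IRAK1 on 3 and LY96 on 1. With a filter of at least 4 arrays, 8 of the 10 genes entered the test, among 10985 probes in all (73.2% of 15008). Between 4 g and 0 g, 0 of these 8 genes passed in limma with the animal as a block, against 0 of 10985 probes (0% called) over the whole array. At an unadjusted p under 0.05 the counts were 0 of 8 genes and 121 of 10985 probes (1.1%), and the groups failed to overlap for 0 of 8 genes and for 66 of 10985 probes (0.601%). Of the 8 differences 4 were above 0 and 4 below, with a median of 0.04, beside a median of 0.02 and 53.6% above 0 for all tested probes.

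**Figure D1:**
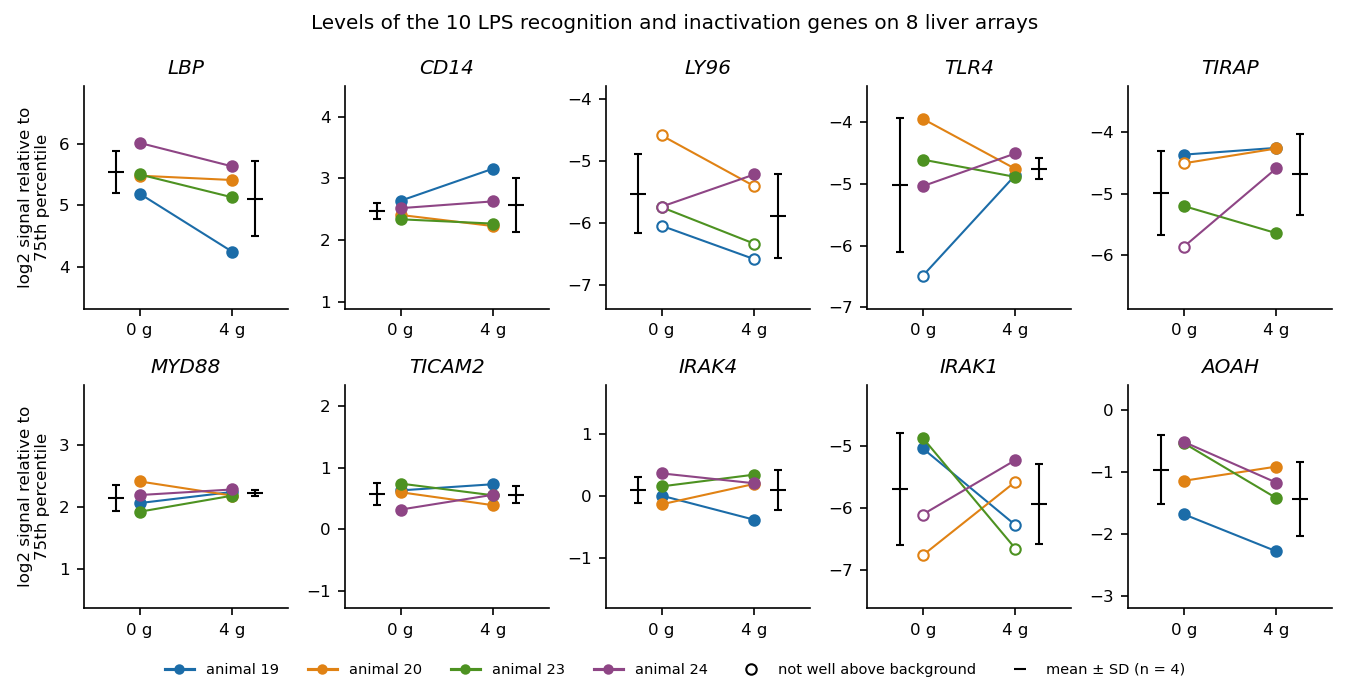
Level of each of the 10 genes (y axis, log2 signal relative to the array's 75th percentile; every panel spans the same number of log2 units) at 0 g and 4 g of antibody (x axis), with a line for each animal, open circles for arrays where the probe was not well above background, and the mean ± SD of 4 animals beside each dose. LBP falls along all 4 lines, MYD88, TICAM2 and IRAK4 stay within 0.74 over all arrays, and LY96 has 1 filled circle.

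LBP, which delivers LPS to its receptor, was strongly measured in every liver. It stood at 5.19, 5.48, 5.50 and 6.01 at 0 g and at 4.25, 5.41, 5.13 and 5.63 at 4 g, in the order of animals 19, 20, 23 and 24. The 4 g array of animal 19 was the lowest of all, and the remaining values of the groups overlapped. The means were 5.54 ± 0.34 at 0 g and 5.11 ± 0.61 at 4 g (SD, n = 4). The log2 difference was −0.44 (SE 0.24, 95% CI −1.03 to 0.15), a ratio of 0.738, with an adjusted p of 1.00 in limma. It was below 0 in 4 of 4 animals, at −0.94, −0.07, −0.36 and −0.38, which was true of 237 of 10985 probes (2.16%). The lowest value came from 1 of the 2 dimmest arrays: without animal 19 the difference was −0.27, and without the 2 dimmest arrays (no block) it was −0.17. In animals 19 and 20 alone it was −0.51 (SE 0.62), and in animals 23 and 24 alone −0.37 (SE 0.27). The 10 hepatocyte markers averaged 5.36, 5.33, 4.84 and 4.87 at 0 g and 5.31, 5.12, 4.99 and 5.27 at 4 g. Their mean was lower at 4 g in animals 19 and 20 and higher in animals 23 and 24. Of all marker lists, only those of 2 other cell types had a lower mean level at 4 g in each animal. The 8 endothelial markers averaged −1.56, −1.34, −1.41 and −1.71 at 0 g and −2.06, −1.38, −1.89 and −1.81 at 4 g, with a summed signal of 2.36 to 2.62 and 1.92 to 2.62 and 7 or 8 of 8 well above background. The 8 stellate cell and fibroblast markers averaged −1.03, −0.25, −0.82 and −1.55 at 0 g and −1.28, −0.88, −1.19 and −1.79 at 4 g, with a summed signal of 4.34 to 5.36 and 3.71 to 4.66 and 6 to 8 of 8 well above background. The summed endothelial signal was 2.62 at both doses in animal 20, and 2.36 at 0 g and 2.42 at 4 g in animal 24. Of the stellate cell and fibroblast markers, PDGFRB (0.46) and RGS5 (0.18) were higher at 4 g on average, and the others lower. The part of these cell types in the values of LBP and AOAH was not tested.

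CD14, the receptor that takes LPS over from LBP on macrophages and also circulates in soluble form, was at 2.64, 2.41, 2.34 and 2.52 at 0 g and at 3.16, 2.23, 2.27 and 2.63 at 4 g. Its highest level was on the 4 g array of animal 19, the same array on which LBP and AOAH were lowest. The means were 2.48 ± 0.13 and 2.57 ± 0.43 (SD, n = 4), a log2 difference of 0.09 (95% CI −0.48 to 0.66, adjusted p = 1.00 in limma). The interval leaves out a 2-fold change in either direction, as it did for 64.3% of the tested probes. Without animal 19 the difference turned to −0.05, and to −0.13 without the 2 dimmest arrays.

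The receptor pair itself was faint. TLR4 stood at −6.49, −3.95, −4.61 and −5.04 at 0 g and at −4.86, −4.76, −4.89 and −4.51 at 4 g, in the same order of animals. Both arrays of animal 19 were not well above background. The log2 difference was 0.27 with a wide interval (95% CI −0.75 to 1.28, adjusted p = 1.00 in limma), and it was above 0 in 2 of 4 animals. It turned to −0.19 without animal 19, whose own difference of 1.63 lies between signals that were both at background, and it turned to −0.11 with normexp background correction. LY96, which holds LPS in the receptor complex, reached −5.22 on the 4 g array of animal 24, the only array where it was well above background, and lay between −6.59 and −4.59 on the others. No fold is given for it.

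Among the adaptors the values were close to each other for MYD88 and TICAM2. MYD88, the adaptor shared by most Toll-like receptors, stood at 2.06, 2.41, 1.92 and 2.19 at 0 g and at 2.24, 2.18, 2.18 and 2.28 at 4 g. The 4 g values lie inside the range of the 0 g values. The log2 difference was 0.08 (95% CI −0.46 to 0.62, adjusted p = 1.00 in limma). TICAM2, the adaptor of the interferon arm, stood at 0.63, 0.60, 0.74 and 0.32 at 0 g and at 0.73, 0.39, 0.55 and 0.56 at 4 g, again with one group inside the other. Its difference was −0.01 (95% CI −0.55 to 0.53, adjusted p = 1.00 in limma).

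TIRAP, which anchors MYD88 at the membrane, was dim and less precise. It stood at −4.37, −4.51, −5.20 and −5.86 at 0 g, where 2 of 4 arrays were well above background, and at −4.26, −4.27, −5.64 and −4.59 at 4 g, where 4 of 4 were. The difference was 0.30 (95% CI −0.48 to 1.08, adjusted p = 1.00 in limma), above 0 in 3 of 4 animals and 1.27 in animal 24. Without animal 24 it was −0.03, and with normexp background correction −0.07.

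The kinases gave a measured and an unmeasured case. IRAK4, the first kinase to join MYD88, stood at 0.01, −0.13, 0.16 and 0.37 at 0 g and at −0.38, 0.20, 0.35 and 0.21 at 4 g. Animals 20 and 23 were higher at 4 g and animals 19 and 24 lower. The mean was 0.10 in both groups (SD 0.21 and 0.32, n = 4), and the interval of the difference ran from −0.58 to 0.57 (adjusted p = 1.00 in limma). IRAK1, which IRAK4 phosphorylates, was well above background on the 0 g arrays of animals 19 and 23 (−5.04 and −4.87) and on the 4 g array of animal 24 (−5.23). On the other 5 arrays it lay between −6.77 and −5.58, so it was not tested.

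Of the 8 tested genes, the intervals of CD14, MYD88, TICAM2 and IRAK4 lay inside a 2-fold change to either side. Those of LBP, TLR4, TIRAP and AOAH reached past it.

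**Figure D2:**
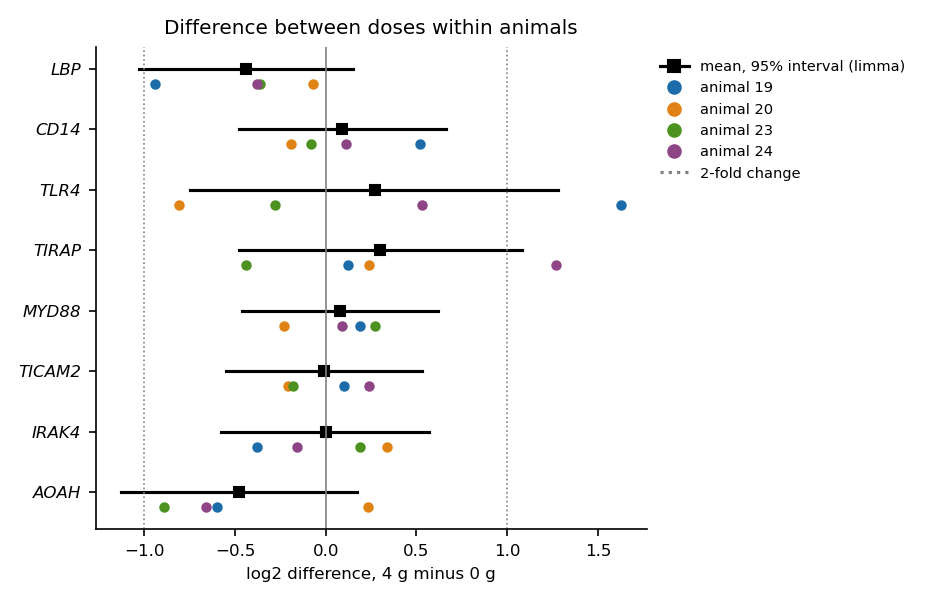
Log2 difference between 4 g and 0 g (x axis) for the 8 tested genes (y axis): squares with lines are the limma mean and 95% interval, coloured circles are the 4 animals, and dotted lines mark a 2-fold change. Every interval includes 0, and those of LBP and AOAH lie mostly on the lower side, ending at 0.15 and 0.17.

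AOAH, the lipase that inactivates LPS, made by macrophages, neutrophils and dendritic cells, had the difference farthest from 0 of the 8 genes as fitted. Without animal 23 this was TIRAP (0.54), without the 2 dimmest arrays TLR4 (0.66), and LBP without animal 24 (−0.46), without the 0 g array of animal 23 (−0.45) and in animals 19 and 20 alone (−0.51). AOAH stood at −1.68, −1.14, −0.53 and −0.51 at 0 g and at −2.28, −0.91, −1.42 and −1.17 at 4 g. Animal 19 was lowest on both arrays, and only in animal 20 was the 4 g array the higher one. The means were −0.96 ± 0.56 and −1.44 ± 0.60 (SD, n = 4), and the log2 difference was −0.48 (SE 0.27, 95% CI −1.13 to 0.17), a ratio of 0.717, with an adjusted p of 1.00 in limma. The animals differed by −0.60, 0.23, −0.89 and −0.66. Animals 23 and 24 alone gave −0.78 (SE 0.27), with 0 g arrays at −0.53 and −0.51 and 4 g arrays at −1.42 and −1.17. Animals 19 and 20 alone gave −0.18 (SE 0.62). The 0 g array of animal 23 is the one that carried the pancreatic acinar markers. Without it the difference of AOAH was −0.33 (SE 0.40, no block). Without the 2 dimmest arrays it was −0.26 (SE 0.34, no block). The unadjusted p of limma was 0.0456 in animals 23 and 24 and 0.774 in animals 19 and 20, and the adjusted p was 1.00 in both. Each of these fits had 1 residual degree of freedom, so its SE leans on the variance of all tested probes. Whether the 2 pairs of animals differ was not tested. In a sample of whole liver, fewer cells that make a transcript and less of it per cell cannot be told apart.

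**Figure D3:**
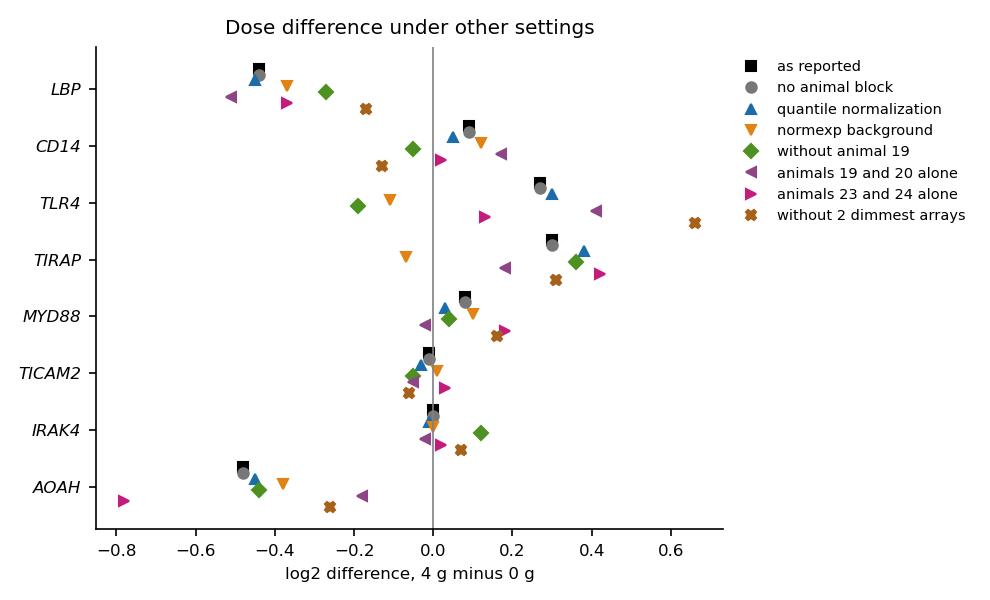
Log2 difference between 4 g and 0 g (x axis) for the 8 tested genes (y axis) as reported and under 7 other settings, one marker shape each. LBP and AOAH stay below 0 throughout, between −0.51 and −0.17 and between −0.78 and −0.18, while CD14, TLR4, TIRAP, MYD88, TICAM2 and IRAK4 have markers on both sides of 0.

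Differences between animals were tested next, and 0 of the 8 genes passed. Averaged over both arrays, AOAH was at −1.98 in animal 19 and at −1.02, −0.97 and −0.84 in animals 20, 23 and 24, and LBP was at 4.72, 5.45, 5.32 and 5.82. CD14 ran the other way, with 2.9 in animal 19 against 2.30 to 2.57 in the others. In limma (F-test, dose in the model) 0 of 10985 probes passed as well (0% called). AOAH had the smallest unadjusted p of the 8 (0.0733, adjusted p = 0.985), followed by LBP (0.0846, adjusted p = 0.985). At an unadjusted p under 0.05 the counts were 0 of 8 genes and 301 of 10985 probes (2.74%). For AOAH the means of animals 20, 23 and 24 lay closer together than the 2 arrays of animal 23 or of animal 24.

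Over the 8 arrays LBP and AOAH followed each other more closely than any other pair of the 8 tested genes, with a Pearson r of 0.89, given as a description of 8 arrays that share 4 animals and differ in brightness. Without the 2 dimmest arrays it was 0.76 over 6 arrays. CD14 was at −0.65 with LBP and −0.73 with AOAH, and this rested on the 4 g array of animal 19: without it the values were 0.29 and −0.28 over 7 arrays. Among all tested probes with a symbol, those most like AOAH were SLC25A33, a mitochondrial nucleotide carrier (0.985), CSF1R, the growth factor receptor of macrophages (0.963), and CLEC6A, a C-type lectin of myeloid cells (0.954). CSF1R stood at 3.27, 3.50, 3.89 and 3.80 at 0 g and at 2.91, 3.60, 3.46 and 3.71 at 4 g for animals 19, 20, 23 and 24. It was lower at 4 g in the same 3 animals as AOAH, which its selection by correlation with AOAH favours. SLC25A33 was at 1.59 and 1.38 on the 0 g arrays of animals 23 and 24 and at 0.01 and 0.03 on their 4 g arrays. In animal 19 it was at −0.72 and −1.53, and in animal 20 at 0.65 and 0.75, in the same order of doses. The genes most like LBP were the translation release factor ETF1 (0.934), ABI3 (0.932) and TPD52 (0.925), each lowest on the 4 g array of animal 19. Leaving out that array gave 0.76, 0.73 and 0.72 over 7 arrays. For CD14 they were the RNA helicase DDX19A (0.987), ASCC2 (0.970) and TIMM50, a subunit of the mitochondrial import machinery (0.960), each of them highest on the 4 g array of animal 19. For TLR4 they were UBE2F (0.955), the growth factor PDGFB (0.953) and FOXJ3 (0.947), each lowest on the 0 g array of animal 19, where TLR4 was not well above background. Without that array they were at 0.80, 0.79 and 0.72 over 7 arrays.

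Kupffer cell and macrophage markers were found for 9 of 14 genes listed, and all 9 were well above background on every array. Their mean level ran from 1.84 to 2.22 at 0 g and from 1.57 to 2.27 at 4 g, and their summed signal from 6.53 to 6.95 and from 6.43 to 6.93 (log2). The list mean correlated with AOAH at 0.84, with LBP at 0.81 and with CD14 at −0.75 over the 8 arrays. Without the 4 g array of animal 19 these were 0.62, 0.43 and −0.24 over 7 arrays. Of single markers, CSF1R came nearest to AOAH and was at 0.92 without that array. The complement receptor VSIG4 went from 0.80 to 0.48, CD5L, a secreted macrophage protein, from 0.76 to 0.73, and the scavenger receptor CD163 from −0.37 to 0.07. Of 7 neutrophil markers 4 or 5 were well above background, with a summed signal of 2.75 to 3.27 at 0 g and 2.62 to 2.89 at 4 g, and the defining markers S100A9 and MMP9 were so on 0 arrays. The part of these cells in the values of AOAH was not tested.

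**Figure D4:**
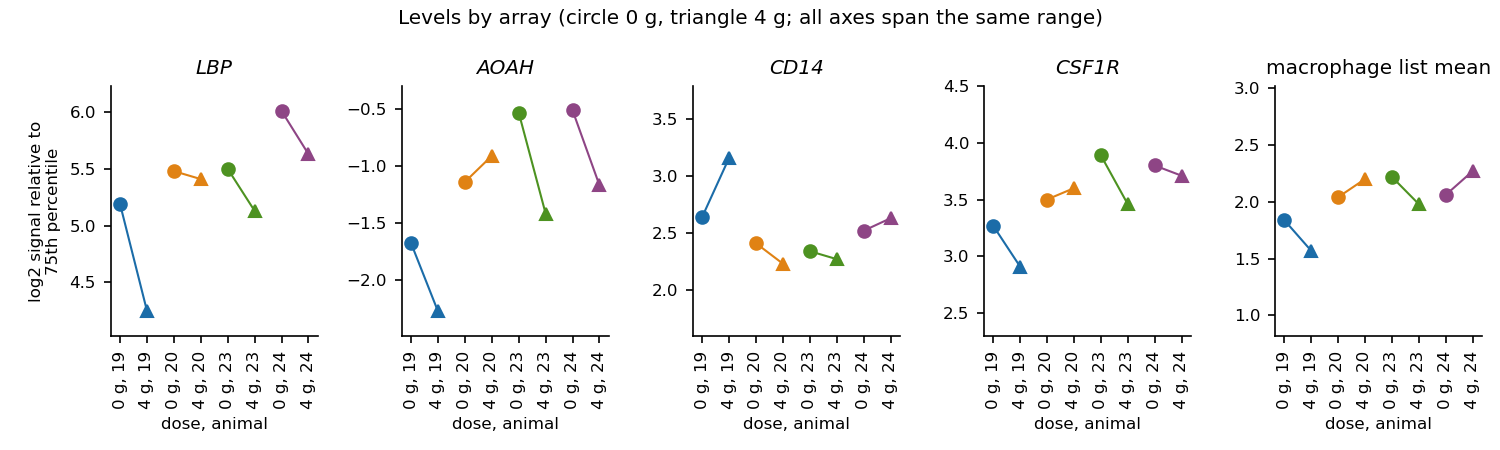
Levels of LBP, AOAH, CD14, CSF1R and the mean of 9 Kupffer cell and macrophage markers (y axes, log2 signal relative to the array's 75th percentile, all spanning the same range) on the 8 arrays (x axis; circles 0 g, triangles 4 g, lines join the arrays labelled as 1 animal). The 4 g array of animal 19 is lowest for LBP, AOAH, CSF1R and the marker mean and highest for CD14.

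The wider pathway was described with 58 further genes in 5 lists by role, of which 49 were tested. None of them passed in limma (0 of 49 adjusted, and 0 of 49 at an unadjusted p under 0.05), beside 0% and 1.1% of all tested probes. Of the 49, 34 lay above 0 (69.4%, beside 53.6% of all tested probes) and 15 below, with a median of 0.07. With normexp background correction the balance turned, to 17 above and 32 below with a median of −0.05 (34.7% above 0, beside 37.5% of all probes, whose median moved from 0.02 to −0.04).

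Among genes that carry or clear LPS, 10 of 11 were tested, 6 above and 4 below 0, with a median of 0.04. The lipoprotein receptor SCARB1, which also takes up LPS, differed by 0.20 (SE 0.23). CD180, a TLR4-like receptor of B cells, differed by 0.29 (SE 0.40) and was well above background on 2 of 4 arrays in each group. The phosphatase ALPL, which removes phosphate from lipid A, differed by 0.31 (SE 0.47). Both turned without animal 20, whose 0 g array is one of the 2 dimmest, to −0.19 for CD180 and −0.25 for ALPL, and with normexp, to −0.10 and −0.07. The adjusted p of the 3 genes was 1.00 in limma.

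Of the other Toll-like receptors 5 of 9 were tested, 2 above and 3 below 0 (median −0.04). TLR10 had the difference farthest from 0 of the 49 genes as fitted, at 0.66 (SE 0.32, adjusted p = 1.00 in limma), above 0 in 4 of 4 animals, as were 2.92% of all probes, and well above background on 3 of 4 arrays at each dose. By animal it was 0.46, 1.68, 0.13 and 0.37, so animal 20 was far above the rest. Without animal 20 it was 0.32, where IKBKG was 0.66 and RNF216 farthest, at 0.70, and with normexp it was −0.05. TLR5, the flagellin receptor, differed by −0.14 (SE 0.25) and TLR6, a partner of TLR2, by 0.07 (SE 0.27), the latter −0.14 without animal 19 and −0.05 with normexp. The probes for TLR8 and TLR9 were well above background on 0 arrays.

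In the MyD88 arm, 12 of 16 tested genes lay above 0 and 4 below. Their median was 0.10, and it turned to −0.05 with normexp background correction. This list holds kinases and ubiquitin enzymes on the way to NF-kB, and also MAP2K3, MAP2K6, MAPK14 and MAPK8 of the MAP kinase branch. IKBKG, the scaffold subunit of the IkB kinase, had the smallest unadjusted p of the 49 genes (0.0704 in limma). Its difference was 0.52 (SE 0.24, adjusted p = 1.00 in limma), above 0 in 4 of 4 animals, as were 2.92% of all tested probes. The catalytic subunits CHUK and IKBKB differed by 0.29 (SE 0.26) and 0.22 (SE 0.25). In the TRIF arm, which TICAM2 feeds, 7 of 8 lay above 0 (median 0.06), against 3 of 8 with normexp (median −0.02) and 4 of 8 without animal 20 or in animals 19 and 20 alone. It held the kinase RIPK1 at 0.34 (SE 0.27), the interferon regulator IRF7 at 0.33 (SE 0.29) and the scaffold TANK at 0.11 (SE 0.26). Among proteins that restrain the pathway 7 of 10 lay above 0 (median 0.11), against 4 of 10 with normexp (median −0.04). They included the deubiquitinase CYLD at 0.31 (SE 0.27), TNIP1 at 0.15 (SE 0.21) and TRAFD1 at −0.11 (SE 0.21). Under normexp CYLD was −0.04, TANK was −0.08 without animal 19, and TRAFD1 was 0.06 without the 2 dimmest arrays.

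**Figure D5:**
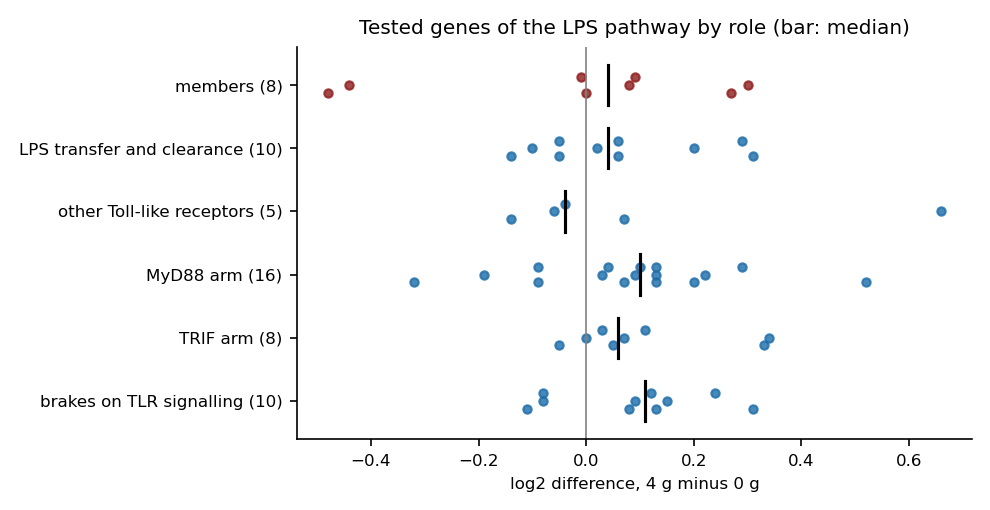
Log2 difference between 4 g and 0 g (x axis) for the 8 tested genes of LPS recognition and inactivation (red) and for the 49 other tested pathway genes (blue), by role (y axis, number tested in brackets); bars are medians. The list medians lie between −0.04 and 0.11 (all below 0 for the blue lists with normexp background correction), and LBP and AOAH are the 2 points below −0.40.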

How the data were processed

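RNA of 8 liver samples was labelled with Cy3 and hybridised to 1 array each. Per the file headers, the deposited intensity values came from Agilent Feature Extraction 11.0.1.1 (the submitters' processing notes name version 9.5), with probe coordinates on UMD 3.1. The processed signal is background-subtracted. The authors deposited log2 values of the same arrays in a series table, which correlated with log2 of the processed signal at 1.00 and were centred on the 75th percentile.

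Of 15646 features per array, 536 controls were left out. The 48 outlier spots were left out on the arrays where they were flagged, and spots of a probe were averaged. The 75th percentile of each array was subtracted from log2 signal. Probes well above background on at least 4 arrays were tested in R 4.3.3 with the package limma, version 3.58.1 (2-sided; lmFit, then eBayes), with dose and animal as terms and Benjamini-Hochberg adjustment at 0.05 over 10985 probes. The block follows the Latin square and the cattle numbers in the titles, since each animal is its own control. Deviations from the group means correlated at −0.19, −0.18, 0.21 and 0.13 between the arrays of animals 19, 20, 23 and 24. The fit was tested on simulated data. The members, the lists and the alternatives were chosen with earlier results of these data known, and correlations without single arrays were added after the values had been seen. By rule, up to 3 genes per pathway list were named, those with the smallest unadjusted p in limma. So were the 3 genes most correlated with each of LBP, CD14, TLR4 and AOAH. Some cell type markers, and TLR8, TLR9 and RNF216, were named outside that rule. The brightest probe stood for a gene in the lists. Current symbols came from a RefSeq table of ARS-UCD2.0 (11194 probes by accession, 3085 by symbol, 38 by synonym), used for names alone. The period of each dose is not in the labels used here, and all arrays came from 1 slide, so neither could be a term.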

Additional observations from a re-analysis of the deposited data

How the results depend on the processing

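The precision is limited by 4 animals and by signal over background, since TLR4, TIRAP, LY96 and IRAK1 were near background on part of the arrays. Over all tested probes the 95% interval reached a median of 0.70 to either side. Each result was recomputed under up to 16 other settings. In all of them 0 of the tested LPS genes and 0 of the pathway genes passed (smallest adjusted p of limma 0.974, at most 1 at an unadjusted p under 0.05 in each), and 0 of the LPS genes differed between animals in the 7 settings tried. Over all probes 5 passed without the 2 dimmest arrays (no block), and 0 in the other 15 settings, with 16 to 454 at an unadjusted p under 0.05. With no replicate block the difference of LBP was −0.44 and that of AOAH −0.48, and the block changed no call. LBP stayed between −0.56 and −0.17 and AOAH between −0.78 and −0.18. Signs turned for small or dim differences: with median centring TICAM2 and IRAK4 were each 0.03, with normexp TLR4 was −0.11, TIRAP −0.07 and TICAM2 0.01, and with array weights IRAK4 was 0.05. Without the 0 g array of animal 23 TICAM2 was 0.04 and IRAK4 0.02, without the 2 dimmest arrays CD14 was −0.13 and IRAK4 0.07, in animals 19 and 20 alone MYD88 was −0.02, and in animals 23 and 24 alone TICAM2 was 0.03 and IRAK4 0.02. Leaving out each animal in turn gave −0.56 to −0.27 for LBP, −0.72 to −0.34 for AOAH, −0.05 to 0.18 for CD14, −0.19 to 0.63 for TLR4, −0.03 to 0.54 for TIRAP, 0.02 to 0.18 for MYD88, −0.10 to 0.05 for TICAM2 and −0.12 to 0.12 for IRAK4. The causes were not tested. With no filter LY96 differed by −0.36 (SE 0.32) and IRAK1 by −0.24 (SE 0.57), each with an adjusted p of 1.00 in limma.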
